A study of Saccharomyces cerevisiae with 18 samples.

Results

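HAA1 and 9 genes of the budding yeast response to weak acids are described here: HSP30, YRO2, TDA6 (YPR157W), TPO2, TPO3, YGP1, SPI1, PHM8 and GRE1. These 10 genes were taken by name from 3 tables that together list 12551 distinct identifiers, and all 10 had a level in each table. They had been chosen on their differences between mutant and control cells in these same libraries, so nothing is supported with those differences. Such differences still enter the means below, which pool mutant and control. The fold changes, errors and p-values of the comparisons were not used, and the variance between the U3 groups is given below as a description alone. The RNA-seq experiments comprised 18 libraries in 6 groups of 3, all from the laboratory strain BY4741 and its derivatives, sampled from glucose medium at 30 °C. BY4741 is of mating type a and carries mutant alleles of HIS3, LEU2, MET15 and URA3. The U3 mutant group lacked SNR17B and held SNR17A under a repressible galactose promoter. It expressed a truncated U3 snoRNA in which an mRNA-binding sequence of snR77 also replaced helix sequence. This snoRNA came from the centromeric plasmid pRS413, which restores growth without histidine. The study also describes a strain with these chromosomal edits that expressed the intact snR17A from the same plasmid. The U3 wild type group is taken here to be that strain, although the RNA-seq methods name BY4741 as a control. The methods describe growth of the U3 mutant in galactose without histidine, followed by a long growth in glucose to deplete the chromosomal snoRNA. A strain deleted for SNR4 and its parent BY4741 were each sampled after a brief transfer to ice-cold PBS, and each also in glucose medium without that transfer. By the methods the samples without the transfer were likewise pelleted in the cold and washed in PBS, so the conditions differ in the incubation in PBS on ice. During it the cells were both cold and without medium, and the effects of cold and of missing medium cannot be told apart. A figure caption of the study instead names a transfer to medium with ethanol and glycerol, while the labels read Ice. The U3 mutant could not sustain growth in glucose, which limits it as a model of an otherwise healthy cell. Nothing in the labels says whether replicates came from separate cultures, while the methods describe replicate transformants of the U3 mutant and the SNR4 deletion.

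Weak acids such as acetic or sorbic acid cross the plasma membrane uncharged and release protons and anions inside the cell. Yeast answers by pumping both out and by remodelling its membrane and wall. Haa1 is the transcription factor that turns on much of the early part of this response to the less lipophilic acids, and it acts beside the general stress factors Msn2 and Msn4 and the heat shock factor Hsf1. Several of its target genes are also turned on by other stresses, among them nutrient limitation and entry into stationary phase.

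The 10 genes lie on 6 chromosomes of the R64 reference genome, each as a single uninterrupted coding sequence that overlaps no other annotated gene. HAA1 is at chrXVI:573018-575102 on the plus strand, SPI1 at chrV:468370-468816 on the plus strand and HSP30 at chrIII:156109-157107 on the minus strand. YRO2 is at chrII:343101-344135, YGP1 at chrXIV:336545-337609 and PHM8 at chrV:225889-226854, all on the plus strand. GRE1 is at chrXVI:128632-129138 and TPO2 at chrVII:763762-765606, both on the minus strand. TPO3 at chrXVI:837909-839777 and TDA6 at chrXVI:841266-842669 are divergent neighbours, so that a single interval of 1488 bases lies upstream of both.

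The upstream sequences were read for the elements of general stress and heat shock factors. Motifs were searched on both strands in the 300 bases before each start codon. The core of the stress response element, bound by Msn2 and Msn4, was taken as CCCCT. A pair of inverted heat shock element units was taken as GAANNTTC, whose positions marked N accept any base. The TATA box was taken as TATAAA. The stress response letters were present in 2 of the 10 genes, SPI1 and PHM8, against 22.2% of the 6001 windows of protein-coding genes. SPI1 held 2 matches, as 3.45% of all windows did at a minimum of 2, and these began 265 and 258 bases before its start codon. The heat shock letters were present in HAA1 and TDA6, against 11.5% of windows. TDA6 held 3 matches, beginning 153, 130 and 96 bases before its start codon, while 0.75% of windows held 2 or more. TATAAA was found upstream of 8 of the 10 genes, the exceptions being YRO2 and TPO3, against 48.2% of windows. No match overlapped a match of another of these motifs. The windows of SPI1, PHM8 and TDA6 are given because they hold both stress response cases and the repeated heat shock letters. They run 5′ to 3′ from 300 to 81 bases before the start codon, with the matches in capitals. SPI1 (chrV:468070-468289, plus strand) and PHM8 (chrV:225589-225808, plus strand) show the stress response letters, in PHM8 as the complement on the other strand, and TDA6 (chrXVI:840966-841185, plus strand) shows the heat shock letters.
SPI1: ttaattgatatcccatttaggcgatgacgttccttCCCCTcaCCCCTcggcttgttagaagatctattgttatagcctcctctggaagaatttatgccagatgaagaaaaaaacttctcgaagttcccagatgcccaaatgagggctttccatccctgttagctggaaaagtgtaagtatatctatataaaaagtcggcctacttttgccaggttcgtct
PHM8: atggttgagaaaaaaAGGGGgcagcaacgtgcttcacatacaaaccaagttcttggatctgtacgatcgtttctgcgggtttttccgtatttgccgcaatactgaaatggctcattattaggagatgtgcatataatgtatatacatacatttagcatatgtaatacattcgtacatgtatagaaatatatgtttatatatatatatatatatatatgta
TDA6: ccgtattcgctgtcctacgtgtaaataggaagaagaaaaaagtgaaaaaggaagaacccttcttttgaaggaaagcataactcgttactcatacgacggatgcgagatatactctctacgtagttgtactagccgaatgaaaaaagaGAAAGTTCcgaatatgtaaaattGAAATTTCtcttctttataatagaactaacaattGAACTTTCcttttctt
In SPI1 the matches are separated by a pair of bases, and in TDA6 the 3 matches lie near the middle of the window searched and on its side toward the gene. A match is a description of these letters and does not show that a factor binds there. The element bound by Haa1 itself was not searched.

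Levels could be read only as means over the 6 libraries of each table, and no value of a single library was used. Each snR4 table gave the authors' mean of normalised counts over 3 mutant and 3 BY4741 libraries. The means summed to about 13472000 on ice and 14614000 in glucose. Because a mean pools both strains, a ratio of ice over glucose describes the strains together. The ratio is also not independent of how the genes were chosen, since a strain difference in either condition enters that condition's mean. It has no replicate error and no test, and the condition cannot be told apart from the separate normalisation and preparation of each table. Counting intervals (95%, Clopper-Pearson) cover counting error only, and the widest among the 10 genes spanned 0.33 on the log2 scale, for GRE1. For the targeted snoRNA gene the pooled means were 149 normalised counts of SNR4 on ice and 110 in glucose, which do not separate deletion from parent. LEU2 and URA3, which are inactivated in BY4741, went against that genotype in the U3 libraries. LEU2 had means of 1.86 normalised counts on ice and 0.703 in glucose, but 423 estimated counts in the U3 libraries. URA3 had means of 3.14 on ice and 3.57 in glucose, but 785 estimated counts in the U3 libraries, which therefore do not match the labelled strain at these markers. Their part in the spread of the U3 libraries was not tested.

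Per length, the 10 genes covered a wide range of expression. Values were expressed as ppm of the sum of their table and then per kb of coding length. In the ice table they ranged from 12.7 for GRE1 to 398 for YGP1, and in the glucose table from 15.9 for GRE1 to 728 for YGP1. The highest therefore exceeded the lowest by 31.4-fold on ice and 45.7-fold in glucose. The median percentile of the 10 genes among rows with a coding length was 70.2 on ice and 76.6 in glucose. GRE1 was the sole gene under the 50th percentile in each table, while SPI1, HSP30, YRO2 and YGP1 were above the 90th in glucose. In the U3 libraries, whose levels are geometric means of estimated counts, the range ran from 4.85 for GRE1 to 151 for PHM8, and the median percentile was 70.1.

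**Figure D1:**
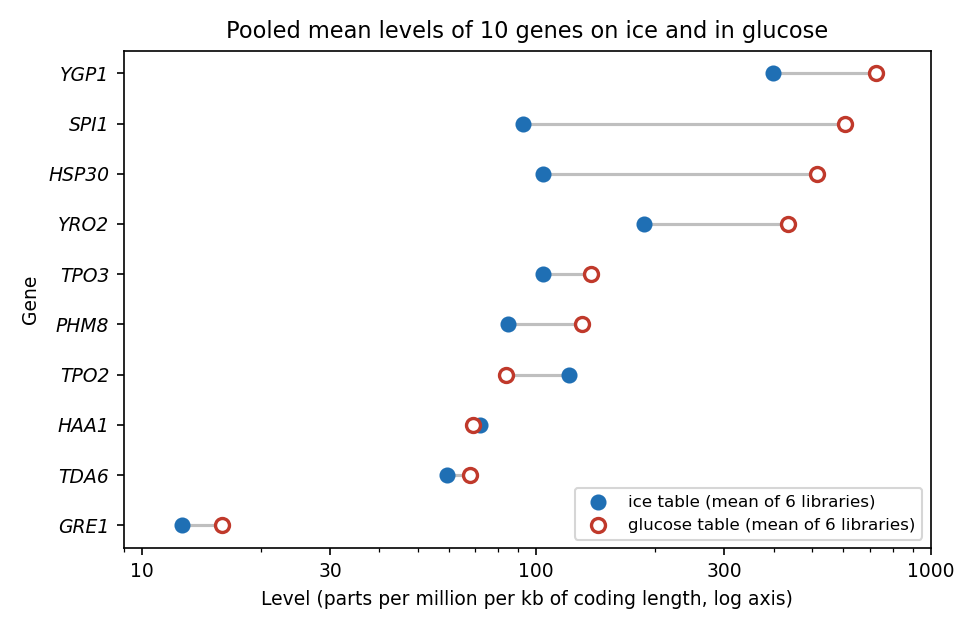
Pooled mean level of each of the 10 genes on ice (filled circles) and in glucose (open circles), in ppm per kb of coding length on a log axis, each the mean of 6 libraries with no error because no single library was used. SPI1 stands at 92.7 on ice and 605 in glucose, whereas HAA1 stands at 71.8 on ice and 69.0 in glucose.

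The question for the second experiment was how these genes stood in cells held in ice-cold PBS. Together they took 1502 ppm of the ice table and 2793 ppm of the glucose table, a ratio of 0.538. Of the 10 genes, 8 had a ratio below 1 and 3 (SPI1, HSP30 and YRO2) were at least 2-fold lower on ice, while 0 were at least 2-fold higher. Across the 6799 rows with at least 10 mean normalised counts in both tables, 4.35% were at least 2-fold lower and 1.85% at least 2-fold higher. The median log2 ratio was -0.51 for the 10 genes and 0.03 for all those rows. Unless stated otherwise, the ratios of ice over glucose for single genes are of ppm, with 1 ppm added to each level. They are not ratios of the mean normalised counts printed beside them below. Among mRNA rows alone the share at least 2-fold lower was 4.83%. The share of all rows with a ratio below 1 was not computed. Their log2 quartiles were -0.21 and 0.25, so ratios slightly below 1 were common. As the choice of the 10 genes enters these ratios, their counts and median are a description beside those of all rows.

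The lowest ratios belonged to SPI1, HSP30, YRO2 and YGP1. SPI1, which encodes a cell wall protein anchored through a glycolipid and is known for protecting cells from weak acids, had 558 mean normalised counts on ice, against 3953 in glucose. Its log2 ratio was -2.68, a level on ice of 0.156 times that in glucose, and lay at the 0.478th percentile of all rows. HSP30 encodes a plasma membrane protein induced by heat and weak acid that restrains the proton pump Pma1. It had 1401 mean normalised counts on ice and 7507 in glucose, a log2 ratio of -2.29. YRO2, which encodes a related membrane protein, had 2612 on ice and 6566 in glucose, a log2 ratio of -1.21. YGP1, a secreted glycoprotein made when nutrients run short, was the most abundant of the 10 in the ice and glucose tables, in mean counts and per kb. Its means were 5704 normalised counts on ice and 11329 in glucose, and its log2 ratio of -0.87 was just short of 2-fold.

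Relatives of the 10 genes were listed beside them. MRH1, the closest relative of YRO2, had 20146 mean normalised counts on ice and 19723 in glucose, a log2 ratio of 0.15, although the coding sequences of the pair are 80.3% identical over 942 aligned bases. Their longest shared run was 32 bases. SED1, an abundant wall protein related to SPI1, had a log2 ratio of -0.35, and SPS100, the relative of YGP1, one of -0.52. Of the 7 relatives, 0 were at least 2-fold lower, against 4.35% of all rows, and 0 at least 2-fold higher, against 1.85%, so this count does not set them apart from other genes. Their median log2 ratio was -0.11. The list also holds CUP2, the copper-sensing relative of HAA1 (-0.46), SDT1 for PHM8 (-0.05), SIP18 for GRE1 (-0.08) and VPS62 for TDA6 (-0.11).

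The regulator itself stood elsewhere in the distribution. HAA1 had 2018 mean normalised counts on ice and 2102 in glucose, and its log2 ratio of 0.06 lay at the 52.9th percentile of all rows. Its sign depends on the scaling, since the ratio of the deposited means was -0.06. The general stress regulators also stayed under 2-fold: MSN2 at 0.29, HSF1 at -0.13 and MSN4 at -0.84. An mRNA level does not show the activity of the factor it encodes.

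The transporter pair had ratios on opposite sides of 0. TPO2 and TPO3 encode plasma membrane polyamine exporters that are close copies of each other. TPO2 had 3010 mean normalised counts on ice and 2257 in glucose, a log2 ratio of 0.53. TPO3 had 2615 on ice and 3753 in glucose, a log2 ratio of -0.40. TPO2 thus exceeded TPO3 per kb on ice (1.17 times), while the ratio of the pair was 0.609 in glucose. In the U3 libraries the ratio was 1.47, but it rests on geometric means of estimated counts, a different measure from mean normalised counts. Summed, the pair took 418 ppm on ice and 411 ppm in glucose, a log2 ratio of 0.02. Their coding sequences are 91.5% identical over 1829 aligned bases and share a run of 365 identical bases, from which a read cannot be assigned to either gene. The individual values of TPO2 and TPO3 are therefore uncertain.

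The remaining genes had ratios below 1 and short of 2-fold. PHM8, a lysophosphatidic acid phosphatase and nucleotidase induced by phosphate limitation, had 1100 mean normalised counts on ice and 1846 in glucose, a log2 ratio of -0.62. GRE1, a hydrophilin induced by osmotic and other stresses, had 86.6 on ice and 118 in glucose, a log2 ratio of -0.29. Without the added 1 ppm its ratio was -0.33, with a counting interval of -0.50 to -0.17. It was the least abundant of the 10 genes. TDA6, a gene of unknown function, had 1126 on ice and 1391 in glucose, a log2 ratio of -0.19. PHM8 lies 3 bases from its neighbour KRE29, so reads at that edge may be shared if strand was not counted. The study names a directional library kit, but the sources used here do not state strand use in counting.

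**Figure D2:**
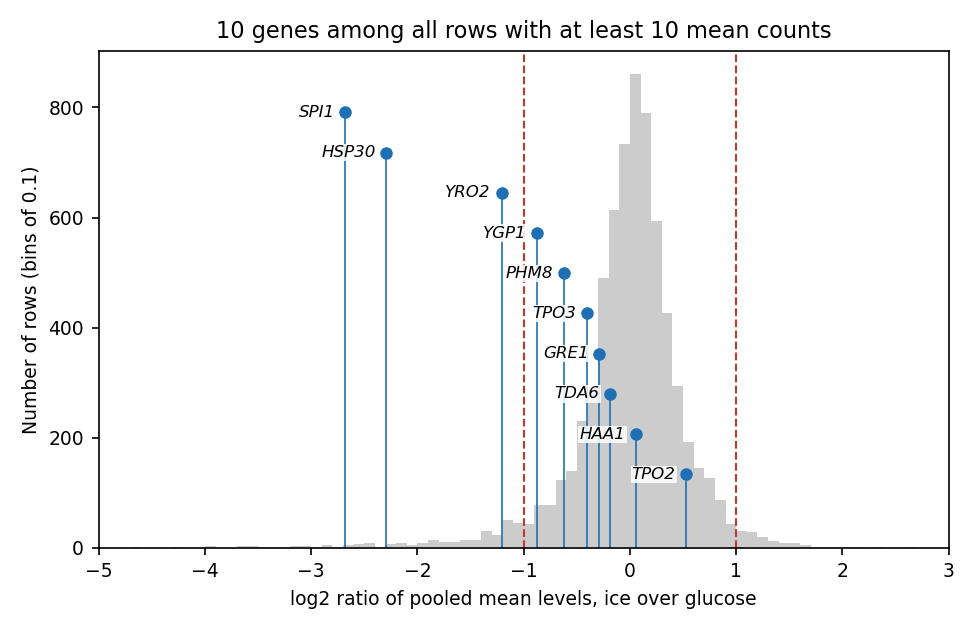
Number of rows (bars) by log2 ratio of pooled mean levels, ice over glucose, for the 6799 rows with at least 10 mean normalised counts in both tables, with the 10 genes marked at arbitrary heights and dashed lines at 2-fold. SPI1 at -2.68, HSP30 at -2.29 and YRO2 at -1.21 lie left of the lower line, and TPO2 at 0.53 is the highest of the 10.

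Other genes of the weak-acid response spanned both directions. From a list of 15, 14 passed the minimum of mean counts, with a median log2 ratio of 0.11. AQR1, a plasma membrane exporter that confers tolerance to short-chain monocarboxylic acids, had 3087 mean normalised counts on ice and 534 in glucose, a log2 ratio of 2.62. It was the only gene of the list at least 2-fold higher on ice. ATO2, a putative ammonium and acetate transporter, had 60.6 on ice and 314 in glucose (-2.03), and TPO4, a polyamine exporter, had 1431 on ice and 4608 in glucose (-1.56). PDR12, the pump that expels sorbate and benzoate, had a log2 ratio of 0.59 and TPO1 one of 0.71, while WAR1, which activates PDR12, was at 0.01. PMA1, the proton pump, was at 0.28 and HRK1, a kinase that activates it, at -0.21. In all, 1 of the 14 was at least 2-fold higher and 2 were at least 2-fold lower, beside 1.85% and 4.35% of all rows, and the list was not tested against the 10 genes.

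The U3 table holds a variance over all 6 libraries and a variance within the groups for each transcript, and from these the spread of the 10 genes was described. The share of variance that lay between U3 mutant and U3 wild type was taken as 1 minus the part left within groups. Where groups do not differ, this share averages 20%. It has no sign, so it does not say which group was higher, and as the genes were chosen on this contrast it is given as a description. The share was at least 80% for 3 of the 10 genes: TDA6 at 88.7%, HSP30 at 85.4% and YGP1 at 84.4%. Of all 8829 transcripts with at least 5 estimated counts, 28.0% had a share this high, and of the 5967 coding transcripts among them 32.9%. The median share was 53.7% over the 10 genes, 55.4% over all transcripts and 62.9% over coding ones, so the 10 genes did not stand above this background. PHM8 at 73.6% and YRO2 at 71.0% came next, HAA1 stood at 36.4% and TPO3 at 26.7%, and SPI1 (12.3%), TPO2 (11.6%) and GRE1 (3.01%) were the lowest. Among the marker genes, LEU2 had a share of 86.3%, HIS3 of 46.2% and URA3 of 0.007%. Whether a difference in strain background between the U3 groups lies behind the value of LEU2 was not tested. SNR17B, described as deleted in the U3 mutant, had a mean of 134 estimated counts in the U3 libraries and a share of 17.8%. SNR17A had a mean of 9874 estimated counts and a share of 34.0%. How these values relate to the described genotype was not tested.

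The spread within groups was wide for several of the genes. For 5 of the 10, the standard deviation (SD) within groups was at least 2 times that which the authors' smoothed variance gives at the same level, against 7.35% of all transcripts and 6.49% of coding ones. SPI1 exceeded it 2.93-fold, YRO2 2.86-fold, PHM8 2.63-fold, YGP1 2.61-fold and HSP30 2.36-fold, and TPO2 fell just short at 1.99-fold. Their SDs within groups were 0.68, 0.69, 0.67, 0.60 and 0.58 on the log2 scale, and 0.51 for TPO2. SPI1 thus combined a wide spread between replicates with a small share between groups. HSP30, in contrast, had an SD of 1.36 over all 6 libraries, against 0.58 within groups. HAA1 had an SD within groups of 0.17, below the smoothed value. Of the 7 relatives, 0 reached 2 times the smoothed SD. In the list of 15 other weak-acid genes 2 did, HRK1 and GPG1. The number of libraries behind each SD is 6, with 4 residual degrees of freedom. Each SD within groups pools U3 mutant and U3 wild type, so it does not show which group or library holds the spread. As the genes were chosen on these same libraries, the count of 5 is a description.

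**Figure D3:**
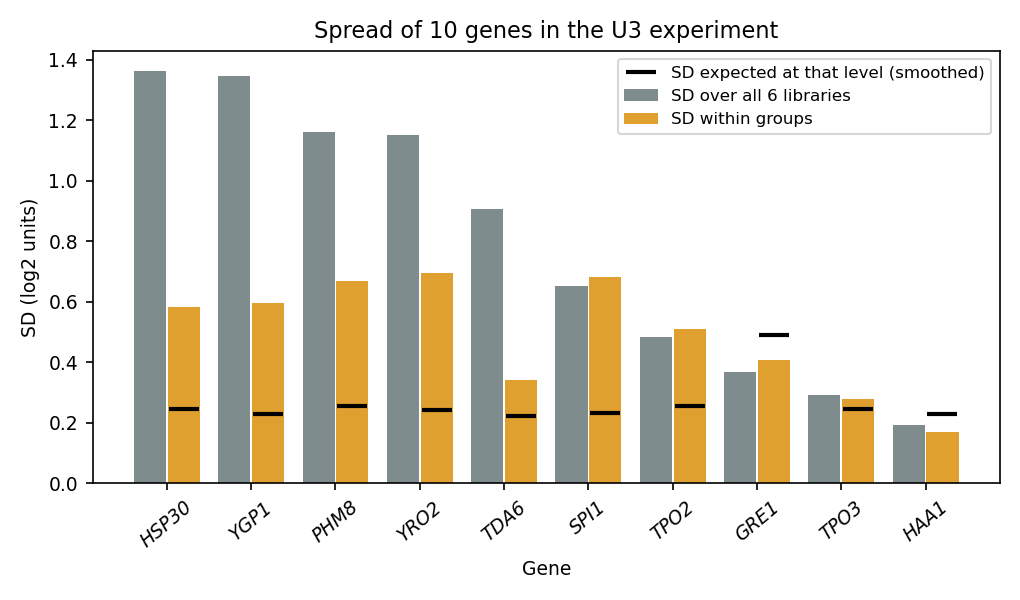
Standard deviation of each gene in the U3 experiment on the log2 scale, over all 6 libraries (grey bars) and within the 2 groups of 3 (orange bars), with the value the authors' smoothed variance gives at that level (black lines). HSP30 has 1.36 over all libraries and 0.58 within groups, and for SPI1, TPO2 and GRE1 the SD within groups is as large as that over all libraries, or larger, because the group means take up a degree of freedom.

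The neighbourhood of the transporter genes was compared as well. On chromosome XVI the genes TPO3 and TDA6 run apart, with CUR1, a protein-sorting factor for misfolded proteins, following TDA6 after 592 bases. On chromosome VII, TPO2 is followed in the same order by VPS62 and BTN2, the relatives of TDA6 and CUR1, with CBF2 between TPO2 and VPS62. TDA6 and VPS62 are 72.0% identical over 1319 aligned bases. Their log2 ratios of ice over glucose were -0.19 and -0.11. BTN2, added after its values were seen, had 626 mean normalised counts on ice and 1485 in glucose, a log2 ratio of -1.11, while CUR1, added in the same way, had 455 on ice and 596 in glucose (-0.27). No pattern is drawn from these neighbours, since both were chosen with their values known.

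**Figure D4:**
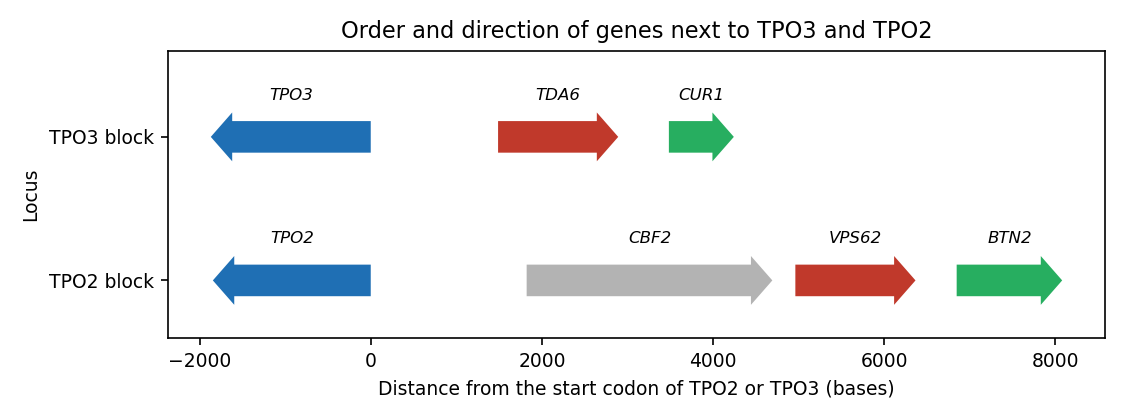
Order and direction of the genes beside TPO3 (upper row) and TPO2 (lower row), drawn to scale by distance in bases from the start codon of the transporter gene, with relatives in the same colour. TDA6 begins 1488 bases from TPO3, and CBF2, in grey, stands between TPO2 and VPS62.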

How the data were processed

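Poly(A)-selected RNA of 18 libraries was sequenced per the labels, while the study's text also mentions rRNA depletion for U3. Per the submitters' processing notes the authors used Trimmomatic, kallisto and sleuth for U3, STAR, HTSeq and DESeq2 for snR4, and build R64. The study names a directional library kit, while strand use in counting is not given in the sources used here. The deposited snR4 signal is the authors' mean of normalised counts over 6 libraries, each table scaled separately. The deposited U3 means are on the natural log of the estimated count plus 0.5, and the U3 variances are score values as deposited by the authors. Columns of the authors' own comparisons (fold changes, errors, statistics, p-values) were not used.

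Depth per library is unknown. Levels were divided by the table sum and by coding length from R64. Ratios used a pseudocount of 1 ppm and at least 10 mean counts. U3 levels are exponentiated means less 0.5, with at least 5 estimated counts, and the SD within groups combines biological and technical variance. No test was made, as no value per library was used. The members and lists were chosen with earlier results of these data known, and the text names all 10 genes, and from the other lists those past 2-fold or at the ends, plus further members where a comparison used them. BTN2 and CUR1 were added after their values were seen. Calculations were tested on simulated data. The software was Python 3.11.15 (biopython 1.88, matplotlib 3.10.9, scipy 1.17.1, pandas 2.3.3, numpy 2.4.6).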

Additional observations from a re-analysis of the deposited data

How the results depend on the processing

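The median log2 ratio of the 10 genes, -0.51, was -0.63 with the means as deposited and -0.62 with a mean of at least 100 in both tables, which leaves 9 genes. At 1.5-fold, 5 genes were lower on ice in place of 3. The share of all rows past 1.5-fold was not computed, and the shares given at 2-fold do not apply to this count. For the U3 share, the smoothed variance gave 6 genes past 80% and a median of 92.5%, the larger of own and smoothed variance a median of 48.8%, a threshold of 90% gave 0 genes and one of 60% gave 5, and at least 100 estimated counts gave a median of 71.0%. The share over all transcripts was not computed for these alternatives, so they have no background here. By its formula the smoothed variance raises the share of any gene whose own variance exceeds it. Without division by length the median percentile was 84.5 in the U3 table, 81.5 on ice and 88.4 in glucose, and among protein-coding rows 76.7, 72.8 and 83.0 in the same order of tables. The direction of the ratio was kept in 9 of the 10 genes under each alternative tried, and HAA1 turned to -0.06 with the means as deposited. No paired analysis was possible because the tables hold no values per library, and for the same reason no replicate could be left out. The pooled means limit each ratio: strain, condition and table cannot be told apart, and GRE1 is the gene with the least depth.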
